A study of Caenorhabditis elegans with 3 samples.

Results

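The genes described here encode enzymes that attach, hand on and remove ubiquitin and its relatives. They were taken by gene symbol, as the genes of Caenorhabditis elegans named uba, uev, usp, ubh, cul, cyld or otub, together with math-33. There were 27 such genes on 28 probes, of 15168 genes with a probe assigned to a single gene on an array of 20000 probes. By role, 3 are activating enzymes (uba), 3 are conjugating enzyme variants (uev), 5 are cullins (cul) and 16 belong to families of deubiquitinating enzymes. The label of conjugating enzymes holds only in part: the catalytic conjugating enzymes named ubc are not analysed here, and the cullins are scaffolds of ubiquitin ligases. The 27 are not the full families, since 26 other worm genes with such names, the ubc genes among them, had no probe named for them here. All 28 probes had a value on every array.

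Ubiquitin is a small protein that is joined to other proteins in a relay. An activating enzyme charges it with the use of ATP, a conjugating enzyme takes it over, and a ligase passes it to the substrate, which may then be degraded by the proteasome or change its partners or place in the cell. Cullins hold a RING protein that binds the charged conjugating enzyme at their C-terminal end and an adaptor that chooses substrates at the other. Deubiquitinating enzymes cut the modifier off again. In the worm this machinery is known for its part in the passage from oocyte to embryo, in which maternal proteins are cleared on a schedule.

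The samples were RNA of adult hermaphrodites, which the labels describe as "adult w/ emb 2" and code TP11. The words were read as adults carrying embryos, while the number and the code were left unread, and neither the genotype of these adults nor their age is stated. Each of 3 worm preps (preps 1 to 3) was hybridised on its own 2-colour array against a mixed reference RNA of wild-type worms. The preps form 1 group, and nothing in the labels says whether they were separate cultures, so the spread between them may be technical.

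Every value below is a log2 ratio, a difference between adult and reference RNA and not a level, and each array was centred on its median. The channels are named in the labels but the dyes are not, so that reading a positive ratio as more RNA in the adults is likely and not settled. Members were tested with limma's moderated test of the mean ratio against 0, with Benjamini-Hochberg adjustment over 19710 probes and a threshold of 0.05. The 3 arrays limit the precision, with a median standard error of 0.182 for a mean log2 ratio. In whole worms, more cells of a type and more RNA per cell cannot be told apart.

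Prep 1 had the widest ratios over all probes, as its robust SD of 0.77 compares with 0.483 for prep 2 and 0.368 for prep 3. Of the markers of adult germline and egg production, 7 of 7 oocyte and germline genes and 7 of 11 eggshell and yolk genes were higher in the adults. The eggshell and yolk genes that did not pass were vit-5, vit-6, cpg-2 and egg-1. Of the sperm markers, 29 of 30 major sperm protein genes were lower, whose probes can bind several family members. Of the 4 other sperm genes spe-11 was lower, while fer-1, spe-9 and spe-38 did not pass (median of the 4 −0.17). The whole sperm list averaged −1.35, −1.91 and −0.99 on preps 1, 2 and 3. Of 7 neuronal markers 6 were lower, and of 7 larval moult markers 4 were lower, while 0 of 5 body wall muscle markers passed in limma (0 at an unadjusted p under 0.05). Of 7 genes listed for the early embryo, pie-1, which is also a maternal transcript, was higher, med-1 was lower and 5 did not pass, with a median of 0.08. The mean ratio of the oocyte and germline list was 2.17, 1.32 and 1.48 on preps 1, 2 and 3, and that of the neuronal list was −1.35, −1.50 and −1.27. Many of these markers differed from the reference on the same arrays as the genes below, and their part in the results was not tested.

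Most genes of the set had positive mean log2 ratios, read as adult over reference RNA. Of 27, 16 were higher (59.3%) and 0 lower, and 11 missed the threshold in limma, where 1 gene (cul-6) was lower at an unadjusted p under 0.05. Over all 15090 genes tested, 16.0% were higher and 17.9% lower by the same call. The median ratio of the 27 genes was 0.67, against −0.025 over all genes. On preps 1, 2 and 3 the median of the members was 1.03, 0.44 and 0.53, against −0.015, −0.035 and −0.013 for all genes. At a mean of at least 2-fold, 5 members were higher (usp-48, usp-14, usp-5, uba-5 and cul-1), and 5.63% of all genes were. The members called higher ran from 0.60 for usp-46 to 1.32 for usp-48.

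**Figure D1:**
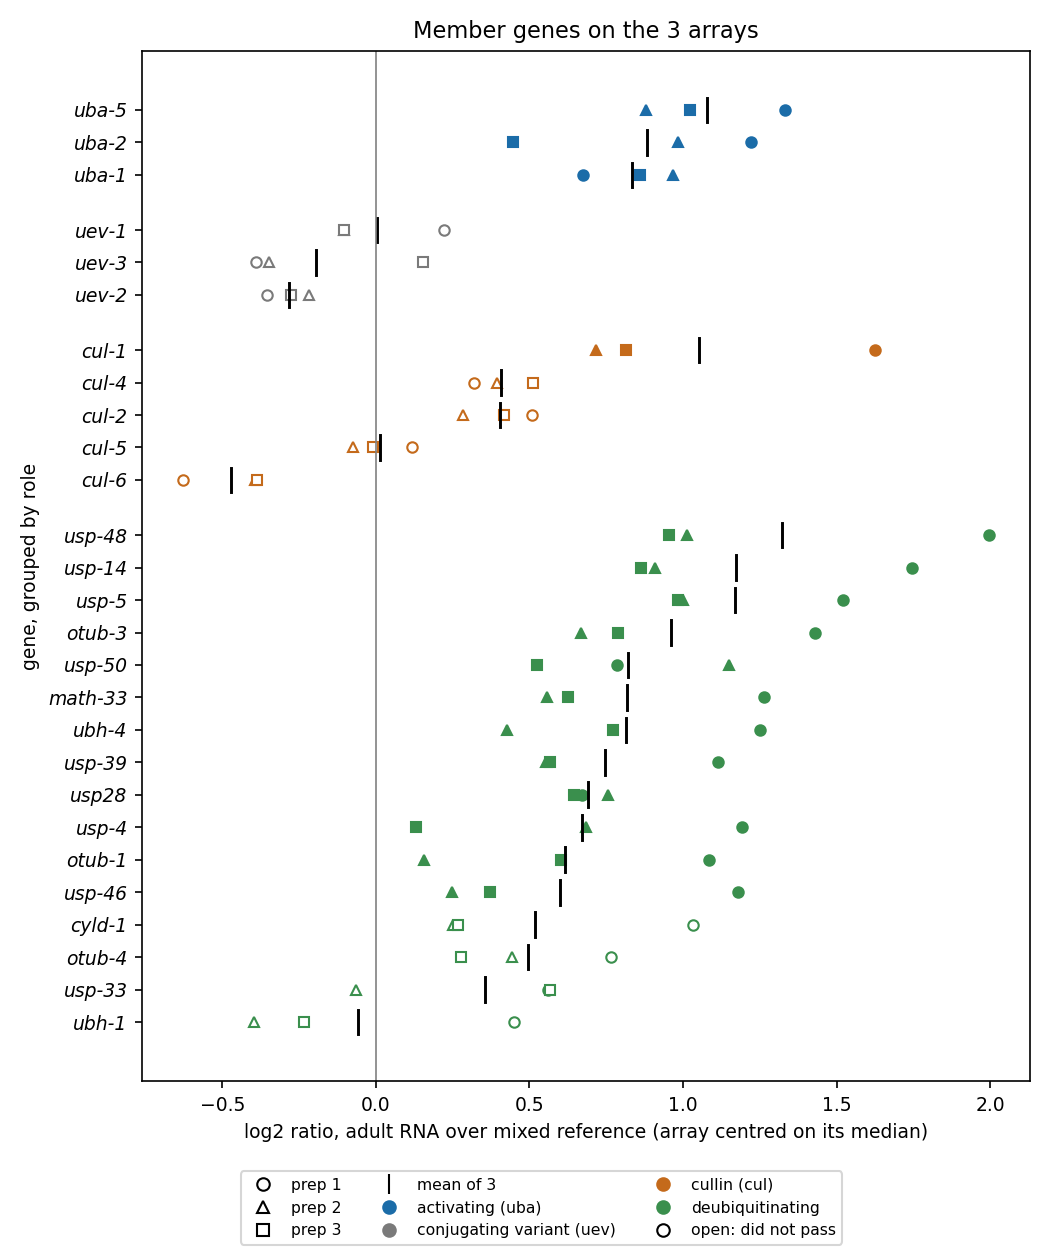
Log2 ratios of adult over mixed reference RNA (horizontal axis) of the 27 genes, grouped by role, on prep 1 (circles), prep 2 (triangles) and prep 3 (squares), with the mean of 3 as a black bar. Filled symbols mark genes higher in limma, which are all 3 uba genes, cul-1 and 12 deubiquitinating enzyme genes, and open symbols mark the 11 genes that did not pass.

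The activating enzymes stand at the head of the relay, and all 3 uba genes were higher, against 16.0% of all genes tested. Among activating enzyme genes with other names, aos-1 and atg-7 were higher, while moc-3, rfl-1 and ula-1 did not pass. The gene uba-1 encodes the ubiquitin-activating enzyme of the worm, which feeds every ubiquitin conjugating enzyme. It had log2 ratios of 0.68, 0.97 and 0.86 on preps 1, 2 and 3. The arrays lay close together, all above 0, and the mean of 0.83 ± 0.15 (SD, n = 3) was a 1.78-fold higher ratio (adjusted p = 0.00383 in limma). Its product acts on ubiquitin itself, and of the genes for that substrate ubq-1, a polyubiquitin gene, was higher at 0.72 ± 0.37 (adjusted p = 0.0146 in limma), while ubq-2, which encodes ubiquitin fused to a ribosomal protein, stood at 0.20 ± 0.48 and did not pass.

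The gene uba-2 encodes the catalytic subunit of the activating enzyme for SUMO, a relative of ubiquitin. As the mean of its 2 probes it had 1.22, 0.98 and 0.45 on preps 1, 2 and 3. Prep 3 was the lowest, and all arrays were above 0. The probes agreed in call, with means of 0.98 ± 0.42 and 0.79 ± 0.39 (SD, n = 3) and adjusted p-values of 0.00343 and 0.0096 in limma. Without prep 2 the larger adjusted p of the 2 probes was 0.0554 in limma, and the call rested on the other probe. The partner subunit gene aos-1 was also higher, with 1.38, 0.19 and 0.80 on preps 1, 2 and 3 and a mean of 0.79 ± 0.60 (adjusted p = 0.0193 in limma). The SUMO gene itself, smo-1, had −0.11 ± 0.29 and did not pass (adjusted p = 0.705 in limma).

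The gene uba-5 encodes the activating enzyme for UFM1, a further relative of ubiquitin known from human cells for modifying ribosomes at the endoplasmic reticulum. Its ratios of 1.33, 0.88 and 1.02 on preps 1, 2 and 3 were the highest of the 3 uba genes on preps 1 and 3. All were well above 0, with a mean of 1.08 ± 0.23 (SD, n = 3), a 2.11-fold higher ratio (adjusted p = 0.00106 in limma). The modifier gene ufm-1 was higher as well (0.72 ± 0.51, adjusted p = 0.0222 in limma). The UFM1 conjugating enzyme gene ufc-1 did not pass, with 0.73, −0.46 and 0.19 on preps 1, 2 and 3, which lay on either side of 0. Without prep 1 the calls of ufm-1 and aos-1 were lost (adjusted p = 0.0945 and 0.0905 in limma), and without prep 3 that of ufm-1 (0.0582).

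The uev genes encode proteins with the fold of a conjugating enzyme that lack its catalytic cysteine. In limma 0 of the 3 passed (0 at an unadjusted p under 0.05), and over all genes tested 16.0% were higher and 17.9% lower. The gene uev-1 encodes the variant that pairs with an active conjugating enzyme to build ubiquitin chains that serve in signalling and traffic. It had 0.22, −0.10 and −0.11 on preps 1, 2 and 3, on either side of 0, with a mean of 0.00 ± 0.19 (SD, n = 3). The gene uev-3, known in worm neurons from the p38 kinase pathway of the DLK-1 kinase, had −0.39, −0.35 and 0.15 and a mean of −0.20 ± 0.30. Preps 1 and 2 were below 0 and prep 3 above it. The gene uev-2 had −0.36, −0.22 and −0.28, below 0 on all arrays and close together (−0.28 ± 0.07, adjusted p = 0.243 in limma). These 3 genes had a median ratio of −0.20, below that of each other role.

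The cullins ranged from −0.47 to 1.05, and 1 of 5 was higher in limma, against 16.0% of all genes tested. The gene cul-1 encodes the scaffold of the SCF ligases, which in the worm are needed for cells to leave the division cycle. It had ratios of 1.63, 0.72 and 0.82 on preps 1, 2 and 3. All were above 0, prep 1 the highest, and the mean of 1.05 ± 0.50 (SD, n = 3) was a 2.08-fold higher ratio (adjusted p = 0.00301 in limma). The closely related cul-6, known in worms from the response to intracellular pathogens and heat, had −0.63, −0.39 and −0.39. It was below 0 on all arrays, at −0.47 ± 0.14, and did not pass (adjusted p = 0.0583 in limma). It was the member called lower after the arrays were scaled to a common spread (adjusted p = 0.0357 in limma) or quantile normalized (0.0221). Within each array the ratio of cul-1 exceeded that of cul-6 by 2.26, 1.11 and 1.2 on preps 1, 2 and 3, a difference given as a description, since the pair was picked with its values known.

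The cullins of the oocyte-to-embryo and replication ligases lay between them. The gene cul-2, whose product works with elongins and the substrate receptors ZYG-11 and ZIF-1 in meiosis and the early embryo, had 0.51, 0.28 and 0.42 on preps 1, 2 and 3. The gene cul-4, whose product with DDB-1 limits DNA replication to a single round through the licensing factor CDT-1, had 0.32, 0.40 and 0.51. Both were above 0 on every array. Their means of 0.40 ± 0.11 and 0.41 ± 0.10 (SD, n = 3) did not pass after adjustment in limma (adjusted p = 0.0992 and 0.0941), while cul-4 passed after quantile normalization (0.0427). The gene cul-5 had 0.12, −0.07 and −0.01, on either side of 0.

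The partners of the cullins were read from a separate list, chosen with earlier results of these data known. Of 20 genes 11 were higher and 1 lower, against 16.0% and 17.9% of all genes tested. The highest were substrate receptors and a regulator of the cullins: zif-1, a receptor of CUL-2 that marks germ plasm proteins for removal from somatic cells of the embryo, at 1.55 ± 0.41, cdt-2, a receptor of CUL-4, at 1.31 ± 0.39, and cand-1, which exchanges receptors on cullins, at 1.28 ± 0.87 (SD, n = 3). The elongin B gene elb-1, a partner of cul-2, was higher (0.71 ± 0.20, adjusted p = 0.00986 in limma), whereas elc-2 (−0.03 ± 0.17), the cul-4 partner ddb-1 (−0.01 ± 0.05) and mel-26 (0.22 ± 0.41), a receptor that directs the removal of katanin after meiosis, did not pass. Without prep 3 the call of elb-1 was lost (adjusted p = 0.0535 in limma).

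The Skp1-related adaptors that join cul-1 to its F-box receptors went in opposite directions. The gene skr-1 had −0.55, −0.95 and −0.34 on preps 1, 2 and 3, with a mean of −0.61 ± 0.31 (SD, n = 3, adjusted p = 0.0265 in limma). Its relative skr-2 had 0.70, 0.28 and 0.54 on the same arrays (0.50 ± 0.21, adjusted p = 0.049 in limma). All arrays of skr-1 were below 0 and all of skr-2 above. The genes are close in sequence, so that either probe could bind both. Without prep 2 skr-1 was no longer called (−0.44, adjusted p = 0.243 in limma), and without prep 1, 2 or 3 skr-2 was not (0.105, 0.0838 and 0.225).

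The deubiquitinating enzymes were 16 of the 27 genes, and 12 of the 16 genes called were among them. Of these enzymes 12 were higher and 4 did not pass, with a median ratio of 0.72. Over all genes tested 16.0% were higher. In the ubiquitin-specific protease family, with math-33 and cyld-1 counted in it, 9 of 11 were higher, and the family median was 1.18, 0.68 and 0.57 on preps 1, 2 and 3. The OTU family had 2 of 3 higher and the family of C-terminal hydrolases (ubh) 1 of 2. On prep 1 the 16 genes had a median of 1.15, against 0.56 and 0.59 on preps 2 and 3.

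The proteases bound to the proteasome were each higher. The gene usp-14 encodes the counterpart of human USP14, which binds the proteasome's regulatory particle and trims chains from arriving substrates. It had 1.75, 0.91 and 0.86 on preps 1, 2 and 3, all above 0, prep 1 the highest, with a mean of 1.17 ± 0.50 (SD, n = 3, 2.26-fold, adjusted p = 0.00164 in limma). The gene ubh-4, the counterpart of human UCHL5, another protease bound to that particle, had 1.25, 0.43 and 0.77 and a mean of 0.82 ± 0.41 (1.76-fold, adjusted p = 0.00885). The intrinsic protease of the particle, encoded by rpn-11, had 1.19, 0.54 and 0.71 (0.81 ± 0.33, adjusted p = 0.00679). All of these values were above 0, and each gene was highest on prep 1. By contrast ubh-1, of the same family as ubh-4, had 0.45, −0.40 and −0.23, on either side of 0 (−0.06 ± 0.45, adjusted p = 0.858 in limma).

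The gene usp-5 encodes the counterpart of human USP5, which takes apart free ubiquitin chains and so returns single ubiquitin to the pool. It had 1.52, 1.00 and 0.99 on preps 1, 2 and 3. The values of preps 2 and 3 were nearly equal, and with a mean of 1.17 ± 0.31 (SD, n = 3, 2.25-fold) it had the lowest adjusted p of the 27 genes (0.000817 in limma). The highest ratio of all was that of usp-48, the counterpart of human USP48, with 2.00, 1.01 and 0.96. Prep 1 was the highest, and the mean was 1.32 ± 0.59 (2.50-fold, adjusted p = 0.00118).

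The gene usp-50 encodes the counterpart of human USP8, a protease of early endosomes. It had 0.79, 1.15 and 0.52 on preps 1, 2 and 3, with prep 2 highest, and a mean of 0.82 ± 0.31 (SD, n = 3, adjusted p = 0.00618 in limma). The gene math-33, the counterpart of human USP7, is known in worms for stabilising the FOXO factor DAF-16, and had 1.27, 0.56 and 0.63 (0.82 ± 0.39, adjusted p = 0.00806). The gene usp-39, related to a human splicing factor that has the protease fold without the activity, had 1.11, 0.55 and 0.57 (0.75 ± 0.32, adjusted p = 0.0105). The gene usp28, named after human USP28, varied least of the 16, with 0.67, 0.76 and 0.64 (0.69 ± 0.06, adjusted p = 0.00949). Each of these genes was above 0 on every array. Without prep 2 the calls of usp-50 and usp28 were lost (0.66 and 0.66, adjusted p = 0.0651 and 0.0628 in limma).

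Of the OTU family, whose members include proteases that prefer particular chain linkages, otub-3 had 1.43, 0.67 and 0.79 on preps 1, 2 and 3, with a mean of 0.96 ± 0.41 (SD, n = 3, 1.95-fold, adjusted p = 0.00358 in limma). The gene otub-1, the counterpart of human OTUB1, had 1.09, 0.16 and 0.60 (0.61 ± 0.46, adjusted p = 0.0394). The gene otub-4 had 0.77, 0.44 and 0.28 and lay just outside the threshold (0.50 ± 0.25, adjusted p = 0.0559). All 3 were above 0 on every array and highest on prep 1.

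The gene usp-46, whose product protects the glutamate receptor GLR-1 from degradation in worm neurons, had 1.18, 0.25 and 0.37 on preps 1, 2 and 3 and was just inside it (0.60 ± 0.50, SD, n = 3, adjusted p = 0.0488 in limma). Without prep 1 its mean was 0.31 and the call was lost (adjusted p = 0.198). The gene usp-4 had 1.19, 0.68 and 0.13 (0.67 ± 0.53, adjusted p = 0.0332). Without prep 1 the means of usp-4 and otub-1 were 0.41 and 0.38 and their calls were lost (adjusted p = 0.146 and 0.155), as were those of usp-4 without prep 2 (0.0779) and of otub-1 without prep 3 (0.0991). Just outside were otub-4 and cyld-1, the counterpart of the human tumour suppressor CYLD, with 1.03, 0.25 and 0.27 (0.52 ± 0.45, adjusted p = 0.0735). The gene usp-33 had 0.56, −0.06 and 0.57 and did not pass (0.35 ± 0.36, adjusted p = 0.195).

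**Figure D2:**
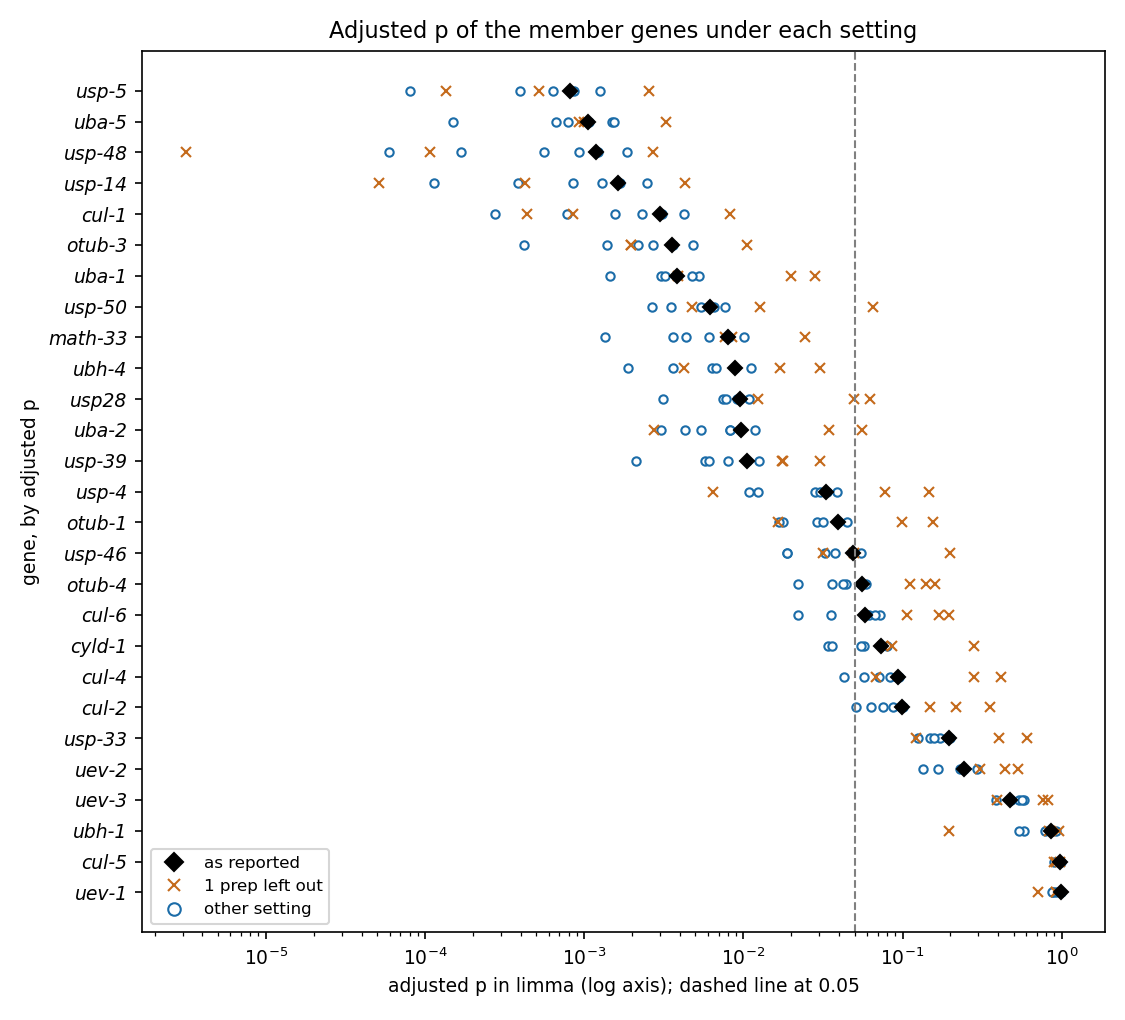
Adjusted p in limma (log axis) of each of the 27 genes as reported (diamonds), with 1 prep left out (crosses) and under 6 other settings (circles). The genes from usp-5 to uba-1 stay left of the dashed line at 0.05 throughout, and the calls of usp-50, usp28, usp-4, otub-1 and usp-46 cross it. For uba-2 the larger value of its 2 probes is drawn, which is 0.0554 without prep 2, although the call is kept.

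Of the 27, 19 had their highest ratio on prep 1, 4 on prep 2 and 4 on prep 3. Among the 16 called higher, 13 were highest on prep 1, and of all genes called higher 78.3% were. That array also had the widest spread over all probes. Ranks within an array do not carry this spread, and by them the members stood at a median percentile of 88.9, 82.7 and 85.8 among all probes of preps 1, 2 and 3. Above percentile 75 of the array lay 19, 16 and 20 of the members on preps 1, 2 and 3, and 14 of 27 on all of them, against 13.6% of all genes. The ratio was above 0 on all arrays for 20 members, against 29.2% of all genes, and below 0 on all arrays for cul-6 and uev-2. Without prep 1 the count of members higher was 13, with a median of 0.45. Without prep 2 it was 13 and without prep 3 it was 15, with medians of 0.66 and 0.72.

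**Figure D3:**
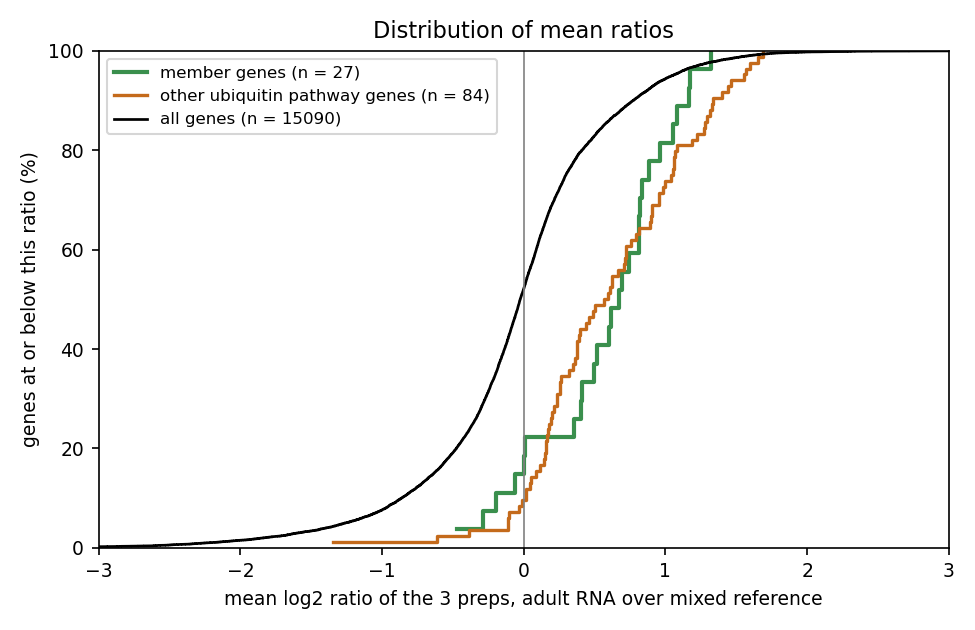
Cumulative share of genes (vertical axis, percent) at or below each mean log2 ratio of adult over mixed reference RNA, for the 27 member genes, 84 other genes of the ubiquitin pathway and all 15090 genes tested. The median of the members is 0.67, that of the other pathway genes 0.58 and that of all genes −0.025. Members and other pathway genes were chosen with earlier results of these data known.

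Other genes of ubiquitin-like modification were read from 7 lists with 84 measured genes. Of these, 42 were higher and 2 lower, and their median was 0.58, against 16.0% higher and 17.9% lower over all genes. The lists were chosen with earlier results of these data known, so that the comparison is a description only. The factors that pull ubiquitylated proteins apart and carry them to the proteasome had 9 of 12 higher. Their highest were cdc-48.2 (1.66 ± 0.46) and cdc-48.1 (1.46 ± 0.35), 2 genes for the same segregase ATPase whose probes could bind both, and the shuttle factor gene rad-23 (1.57 ± 0.76, SD, n = 3). Their lowest, cdc-48.3 (0.09 ± 0.25), ubql-1 (0.19 ± 0.21) and ddi-1 (0.36 ± 0.32), did not pass.

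Of the list of proteases outside the rule, 7 of 11 were higher, against 16.0% of all genes tested. It was led by the SUMO protease gene ulp-2 (1.33 ± 0.21), the ubiquitin protease gene duo-1 (1.23 ± 0.51) and prp-8 (1.06 ± 0.26), whose product is a splicing factor that holds a protease-like domain. The lowest were the translation initiation factor genes eif-3.F (0.17 ± 0.58) and eif-3.H (0.38 ± 0.05) and the SUMO protease gene ulp-4 (0.38 ± 0.36), which did not pass. Of 25 genes listed as RING, HECT or U-box ligases, 11 were higher. By mean they were led by the heterochronic gene lin-41 (1.69 ± 1.19), the HECT ligase gene ubr-5 (1.59 ± 0.25) and brd-1 (1.44 ± 0.68, SD, n = 3). The last is the worm counterpart of BARD1. On preps 1, 2 and 3 lin-41 had 3.03, 1.26 and 0.77, and ubr-5 had 1.78, 1.68 and 1.32. The lowest were nhl-1 (−0.11 ± 0.07) and marc-6 (−0.10 ± 0.02), which did not pass, and bre-1 (−1.34 ± 0.24, adjusted p = 0.000294 in limma). The worm gene bre-1 encodes a sugar nucleotide dehydratase and not a ligase, and without it 11 of 24 were higher and 0 lower.

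Over all genes tested 16.0% were higher, and the short lists that follow were not tested against that share. Of 6 modifier genes 2 were higher, ubq-1 and ufm-1, and the lowest was ubl-5 (−0.39 ± 0.20), which did not pass. Of 8 further activating and conjugating enzyme genes 2 were higher, aos-1 and atg-7 (0.62 ± 0.45, SD, n = 3), which encodes the activating enzyme of autophagy. The next highest of these 8, moc-3 (0.49 ± 0.31), and the low-lying autophagy conjugating enzyme gene atg-10 (0.16 ± 0.33) did not pass. The NEDD8 gene ned-8, whose product is attached to cullins to switch them on, had 0.23 ± 0.18, and its activating subunit genes rfl-1 and ula-1 had 0.38 ± 0.36 and 0.16 ± 0.27. The gene let-70, which encodes a ubiquitin conjugating enzyme that serves many ligases, had 0.71, −0.07 and 0.06 on preps 1, 2 and 3 and did not pass (adjusted p = 0.422 in limma). Of the COP9 signalosome, which removes NEDD8 from cullins, csn-5 and csn-2 were measured at 0.57 ± 0.64 and 0.26 ± 0.19, and 0 of 2 passed in limma (1 at an unadjusted p under 0.05).

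**Figure D4:**
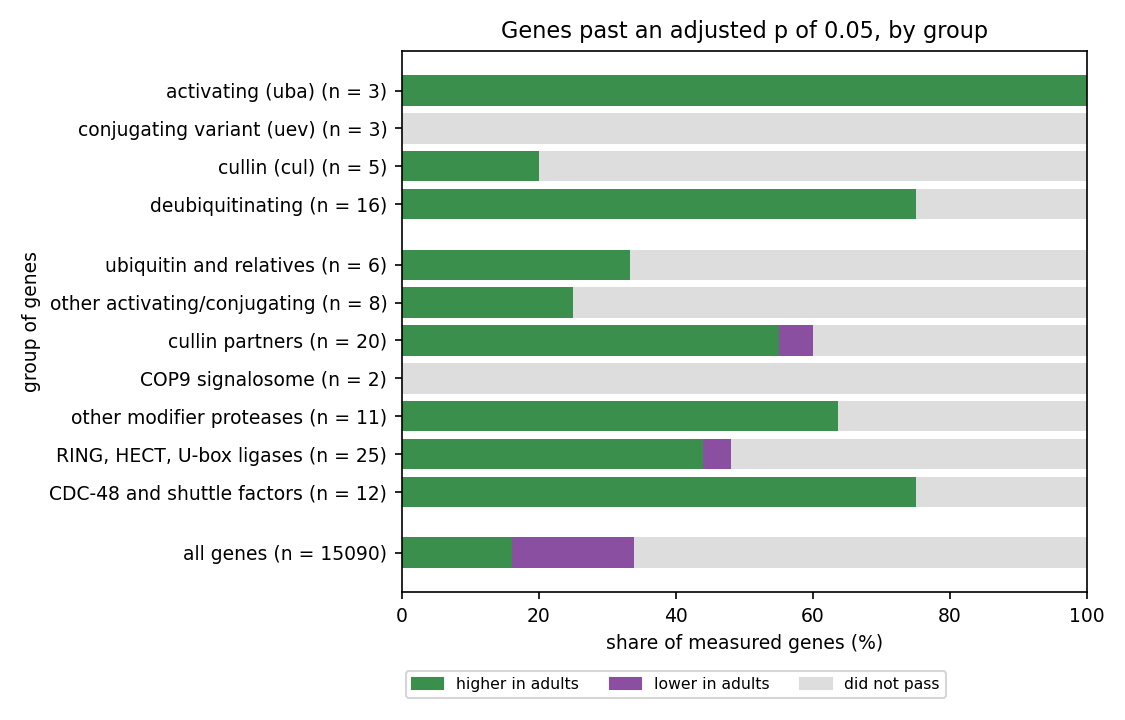
Share of measured genes (horizontal axis, percent) higher, lower or not past an adjusted p of 0.05 in limma, for the 4 roles of the member genes (top), 7 lists of other pathway genes (middle) and all genes tested (bottom). The bars run from 3 of 3 uba genes and 12 of 16 deubiquitinating enzyme genes higher to 0 of 3 uev genes. The bar of all genes is 16.0% higher and 17.9% lower. Members and lists were chosen with earlier results of these data known.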

How the data were processed

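RNA of 3 preps of adult worms was measured against a mixed reference on 2-colour arrays. The authors deposited 1 table with a log2 ratio per probe and array. No header or label states how these were normalized or filtered, or which channel is on top. The values themselves gave the base: read as log2, 100% of ratios under 3 are multiples of 0.001 within 0.00005. Per array, the median deposited log2 ratio was 0.0186 (prep 1), 0.0718 (prep 2) and −0.00868 (prep 3), with centring unknown. No filter on dim spots was made, since intensities were not used here.

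Probes were named from the platform annotation: of 20000, 15655 had 1 gene, 198 had several and 4147 are unnamed here. Each array was centred on its median, and an intercept was fitted with limma 3.58.1 (R 4.3.3; lmFit and eBayes) to the 19710 probes with values on all 3 arrays (2 residual and 8.957 prior degrees of freedom). The fit was run on simulated data as a check of the code and not of the calls, since the simulated noise was independent and equally wide on each array. A gene with 2 or more probes has their mean ratio and takes the largest adjusted p among them. It is called when at least 1 probe passes 0.05 and none passes in the other direction, and 1 gene was called in both and counts as neither. Percentiles are ranks among all tested probes of an array. Each role was given array values for genes past the threshold and those nearest to it, and each companion list its 3 highest and 3 lowest genes. The members and lists were chosen with earlier results of these data known. Alternatives were no centring, common scaling, quantile normalization, probes on at least 2 arrays, a trended robust variance, 1 row per gene, each prep left out, updated symbols, and a call only when every probe passes. Probes can bind close relatives of the named gene. With 1 array per prep, batch and prep cannot be told apart. Tables were handled with pandas 2.3.3 in Python 3.11.15. No sequences are shown.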

Additional observations from a re-analysis of the deposited data

How the results depend on the processing

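The count of 16 members higher stayed between 15 and 19 under the settings that kept all arrays, and between 13 and 15 with a prep left out. The median ratio of the members stayed between 0.579 and 0.698 with all arrays, and between 0.453 and 0.715 with a prep left out. The count of members lower, 0 as reported, was 1 after scaling to a common spread and 1 after quantile normalization, which is the cullin gene cul-6, and 2 cullins in place of 1 were higher after quantile normalization. The cause was not tested. Of the other pathway genes, 42 were higher as reported and 35 to 41 with a prep left out. The 2 lower ones were 1 to 2 with a prep left out, and 1 without bre-1, a setting chosen after seeing the data that removes a gene by construction. Of the 16 genes called higher, 11 kept the call under all 9 settings that refitted the ratios, and 5 (usp-50, usp28, usp-4, otub-1 and usp-46) lost it at least once, usp-46 also with probes on at least 2 arrays (adjusted p = 0.0552 in limma). Of the 11 that did not pass, 4 did at least once: cul-4, cul-6, cyld-1 after quantile normalization and with a trended robust variance (0.0339 and 0.0361), and otub-4 without centring, after scaling, after quantile normalization and with a trended robust variance (0.044, 0.0363, 0.0222 and 0.0425). No paired analysis was possible because the samples form 1 group. Signal over background was not used here, so that a ratio of a dim spot carries an unknown extra error.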

Other observations

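The adaptors and neighbours of cul-6 in the worm's intracellular pathogen response were looked up after the ratio of cul-6 had been seen. The Skp1-related gene skr-5, an adaptor of cul-6 in that response, had −2.72, −2.81 and −1.22 on preps 1, 2 and 3, below 0 on every array and with a mean of −2.25 ± 0.90 (SD, n = 3, adjusted p = 0.000187 in limma). Its relative skr-3 had −0.71, −1.19 and −1.04 (−0.98 ± 0.25, adjusted p = 0.00196). The pals family is named for a shared protein signature and known from the same response. Of its members only pals-25, pals-5, pals-22 and pals-1 are given here. The gene pals-25 was lower (−0.75 ± 0.43, adjusted p = 0.0147 in limma). The gene pals-5 was lower by 1 of its 2 probes (−0.50 ± 0.40, larger adjusted p = 0.133 in limma). The genes pals-22 (0.16 ± 0.13) and pals-1 (0.53 ± 0.57) did not pass. Over all genes tested 17.9% were lower.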
